A study of Mus musculus with 4 samples.

Results

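The mouse genome encodes its collagens as a family of chain genes named by type and chain, such as Col6a3 for chain 3 of type VI. The deposited tables held 28545 genes, and 44 of them carried a symbol of this form: Col, a type number, the letter a and a chain number. Membership was decided by the symbol alone. By textbook classification 11 are fibrillar chains, 6 form the type IV network of basement membranes and 6 form the beaded filaments of type VI. Another 9 are FACIT chains, which sit on the surface of fibrils. The other 12 fall into multiplexins, transmembrane, network-forming and unclassified chains.

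Collagen molecules are assembled from alpha chains whose glycine-X-Y repeats wind around each other into a rope-like helix. Fibrillar collagens give tissue its tensile strength, type IV sheets underlie epithelium, endothelium and smooth muscle, and type VI filaments link cells to the surrounding matrix. In the uterus these proteins are made mainly by stromal fibroblasts and smooth muscle, and they are remodelled over the oestrous cycle. TGF-beta signalling, which SMAD7 restrains, is a known inducer of collagen genes in fibroblasts.

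Polyadenylated RNA from mouse uterus, labelled endometrium, was sequenced in 4 libraries at proestrus. Of these, 2 were labelled SMAD7 Cre+/- with the treatment CKO (Cre 1 and Cre 2), and 2 were labelled SMAD7fl/fl with the treatment blank (fl/fl 1 and fl/fl 2). The design text speaks of uterine tissue and of WT where the labels give endometrium and fl/fl. The loxP line was made by Cas9 editing of fertilised eggs, and the fl/fl animals carry the loxP sites too. The sources used here give neither the Cre line, the exons it deletes nor the age of the mice. They also do not say whether each library is a separate animal, so the spread behind each p-value could be technical.

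Smad7, which checks the labels, went against them: it was listed at 49.9 and 33.9 FPKM in Cre libraries, against 7.79 and 7.81 FPKM in fl/fl libraries. FPKM is the count scaled to exon length and to the library's total count. On the log2 scale the fold change was 2.42 ± 0.28 (SE) and edgeR's quasi-likelihood test gave it an adjusted p of 0.0982. The files give no value per exon, so transcripts that lack the deleted part cannot be told apart from intact ones. Whether labels were exchanged was not tested either; every direction below holds for the libraries as labelled and would turn round, sign by sign, if they were. The groups are therefore called the libraries labelled Cre and the libraries labelled fl/fl, or Cre and fl/fl libraries for short. Total counts ran from 17444368 to 22950532 per library. The fl/fl libraries differed from each other more than the Cre libraries did, with a coefficient of variation between libraries of 0.163 for the Cre pair and 0.401 for the fl/fl pair. Markers of smooth muscle, the tissue of the uterine wall outside the endometrium, were abundant in every library. The 10 markers summed to 2951 and 2646 FPKM in Cre libraries, against 1862 and 1577 FPKM in fl/fl libraries, and each of the 10 was higher in both Cre libraries than in either fl/fl library, where 24.7% of all genes were.

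The repeat that defines the family can be read in the exons. The following exons, 54 bases each and read from GENCODE M21 transcripts on GRCm38, show it for the 5 type VI chains on which the comparison below turns, and for 1 fibrillar and 1 basement membrane chain. Capitals mark glycine codons, which recur every 9 bases.
Col6a3 exon 23, chr1:90791924-90791977, minus strand: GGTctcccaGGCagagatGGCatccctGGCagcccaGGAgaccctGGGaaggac
Col6a4 exon 20, chr9:106033929-106033982, minus strand: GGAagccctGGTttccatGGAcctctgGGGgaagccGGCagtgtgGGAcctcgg
Col6a5 exon 13, chr9:105918186-105918239, minus strand: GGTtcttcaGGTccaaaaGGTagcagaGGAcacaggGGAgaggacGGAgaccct
Col6a1 exon 9, chr10:76719623-76719676, minus strand: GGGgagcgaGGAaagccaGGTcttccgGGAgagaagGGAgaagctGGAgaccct
Col6a2 exon 6, chr10:76611948-76612001, minus strand: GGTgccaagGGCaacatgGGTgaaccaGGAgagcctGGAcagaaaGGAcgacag
Col3a1 exon 6, chr1:45325360-45325413, plus strand: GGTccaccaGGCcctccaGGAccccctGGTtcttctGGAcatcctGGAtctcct
Col4a1 exon 7, chr8:11245211-11245264, minus strand: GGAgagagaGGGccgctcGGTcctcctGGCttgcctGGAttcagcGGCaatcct

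The unbroken length of the repeat sets fibrillar chains apart, while the ranges of the other classes largely overlap. All 44 members had a complete coding transcript, and runs of at least 5 glycine-X-Y units were kept. The longest run was 216 to 344 units in the 11 fibrillar chains, with a median of 338. In the 6 basement membrane chains it was 39 to 66 units, and the repeat was broken into 16 to 24 runs. In the 6 type VI chains it was 37 to 87 units. Type VI chains are mostly made of other domains: 7.9% to 31.9% of their codons lay in such runs, against 53.5% to 77.2% in fibrillar chains. Col6a3, the longest of the 6 at 3284 codons, had 7.9% in runs, and Col6a1, at 1025 codons, had 28.1%. Exons lying inside runs had a length divisible by 9 bases in 508 of 510 cases for fibrillar chains and in 76 of 76 for type VI chains. For type IV chains the count was 100 of 120.

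Across the 28 members with a mean FPKM of at least 1, which were the ones tested, type VI chains had the highest median fold change of the classes and the median of type IV chains was negative. No member passed edgeR's quasi-likelihood test at 0.05 after adjustment over all 13513 genes tested, and no other gene did either (0% called). The lowest adjusted p was 0.0838 among all genes, and among the members 0.155 for Col6a5, followed by 0.252 for Col6a3. At an unadjusted p under 0.05, 3 members were higher in Cre libraries, namely Col6a3, Col6a4 and Col6a5, where 7.3% of all genes were. Col6a5 entered the test only through its Cre values, so its p adds no support, which leaves Col6a3 and Col6a4. On the same terms 1 member was lower, Col7a1, where 6.58% of all genes were. In all 4 of 28 members reached that level (14.3%), beside 13.9% of all genes, so the family as a whole stood near the background. DESeq2, run on the same counts, called Col6a3 and Col6a4 at adjusted p of 0.00239 and 0.0297 and no member lower, where it called 3.24% of all genes higher and 3% lower. It also called Col6a5, with the same reservation.

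The direction within the family was mixed. Of the 28 fitted log2 fold changes, 15 were positive (53.6%, where 47% of all genes were) and 13 negative, with a median of 0.25 beside -0.03 over all genes. In 7 members both Cre libraries lay above both fl/fl libraries in CPM (counts scaled to library size), or 25% of those tested, where 24.7% of all genes did. In 2 members, Col7a1 and Col4a3, they lay below, where 23.6% of all genes did. Col4a3 and, among the 7 above, Col6a5 passed the filter only through the group where they were higher. The 9 together are 32.1% of the tested members, beside 48.3% of all genes. By class the median was 1.26 for type VI, 0.64 for fibrillar, 0.35 for FACIT, -0.12 for multiplexin and -0.49 for type IV chains, and -2.06 for the unclassified Col7a1 and Col26a1. Col26a1 also passed the filter only through its fl/fl values. At a mean FPKM of at least 5, which leaves out Col6a5, the type VI median was 0.96. On leaving out each library in turn the type VI median ran from 0.94 to 1.52, while the fibrillar median ran from 0.07 without fl/fl 2 to 1.14 without fl/fl 1.

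**Figure D1:**
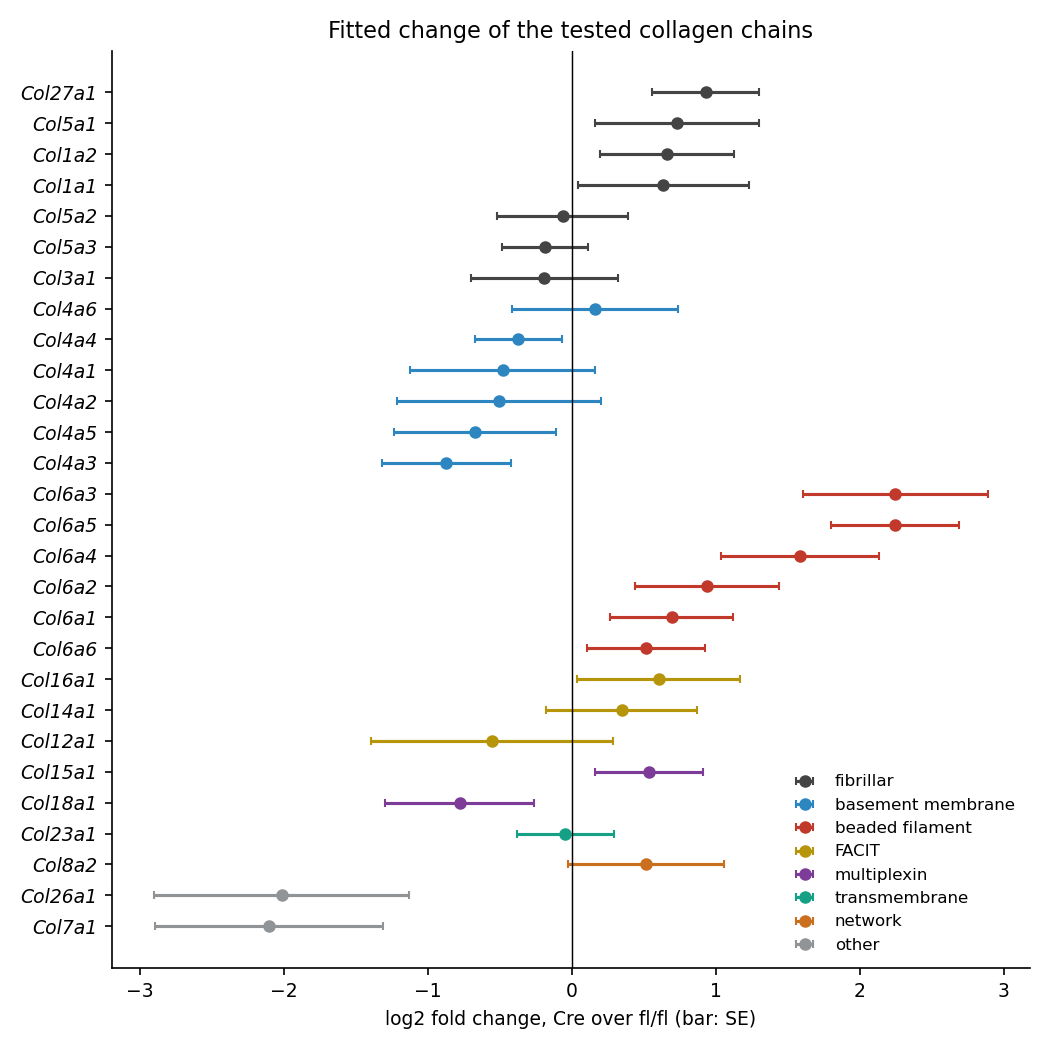
Fitted log2 fold change of the 28 tested collagen chains, libraries labelled Cre over libraries labelled fl/fl, by class. Points are edgeR estimates and bars are SE; the 6 type VI (beaded filament) chains all lie right of 0, from 0.51 to 2.25, and 5 of the 6 type IV (basement membrane) chains lie left of it.

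Type VI collagen is built from Col6a1 and Col6a2 chains with a longer partner, which is Col6a3 or one of its relatives Col6a4, Col6a5 and Col6a6. All 6 genes had positive fold changes. In 5 of them both Cre libraries lay above both fl/fl libraries, where 24.7% of all genes did, and the exception was Col6a6. Col6a5 is among the 5, although it was tested only through its Cre values. The differences were largest for the longer chains Col6a3, Col6a5 and Col6a4.

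Col6a3 (ENSMUSG00000048126, chr1:90765923-90843971, minus strand) encodes the usual long partner. It was listed at 123 and 82.8 FPKM in Cre libraries, against 34.4 and 9.72 FPKM in fl/fl libraries. Both Cre values were above both fl/fl values, although the fl/fl libraries differed from each other by more than the Cre libraries. Its log2 fold change was 2.25 ± 0.64 (SE; edgeR unadjusted p = 0.0163, adjusted p = 0.252). Without fl/fl 1 it was 3.35 and without fl/fl 2 it was 1.62, with the spread then coming from the Cre pair alone.

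Col6a4 (ENSMUSG00000032572, chr9:105989454-106096783, minus strand) encodes an alternative long partner. It was listed at 220 and 150 FPKM in Cre libraries, against 35.9 and 85.6 FPKM in fl/fl libraries. Here fl/fl 2 was the higher of the fl/fl libraries, which was the case for 1 other tested chain, Col23a1. The difference on the log2 scale was 1.59 ± 0.55 (SE; edgeR unadjusted p = 0.0325, adjusted p = 0.309). It was 2.41 without fl/fl 2 and 1.06 without fl/fl 1. Of its exon bases 3.39% overlap the predicted genes Gm47575 and Gm36993, so a small part of its reads could be shared.

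Col6a5 (ENSMUSG00000091345, chr9:105856078-105960643, minus strand), a second alternative partner, was the rarest of the 6. It was listed at 1.54 and 2.12 FPKM in Cre libraries, from 288 and 348 counts, against 0.518 and 0.257 FPKM in fl/fl libraries, from 112 and 44 counts. The values did not overlap. Its mean of 1.11 FPKM passed the filter only through the Cre libraries, so that it had to differ to be tested at all. edgeR fitted a log2 fold change of 2.24 ± 0.44 (SE; edgeR unadjusted p = 0.00347, adjusted p = 0.155). It was 2.78 without fl/fl 1 and 1.86 without fl/fl 2.

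The common chains of type VI differed less. Col6a1, the most abundant collagen transcript by mean FPKM, was listed at 648 and 458 FPKM in Cre libraries, against 435 and 255 FPKM in fl/fl libraries. The groups differed by a log2 fold change of 0.69 ± 0.43 (SE; edgeR adjusted p = 0.516). Col6a2, which lies beside it on chromosome 10, was listed at 309 and 209 FPKM in Cre libraries, against 190 and 83.5 FPKM in fl/fl libraries. This gave a log2 fold change of 0.94 ± 0.50 (SE; edgeR adjusted p = 0.469). For both genes the lower Cre value was close to the higher fl/fl value. Col6a6 was listed at 14.8 and 10.6 FPKM in Cre libraries, against 12.4 and 5.53 FPKM in fl/fl libraries, and these overlapped.

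**Figure D2:**
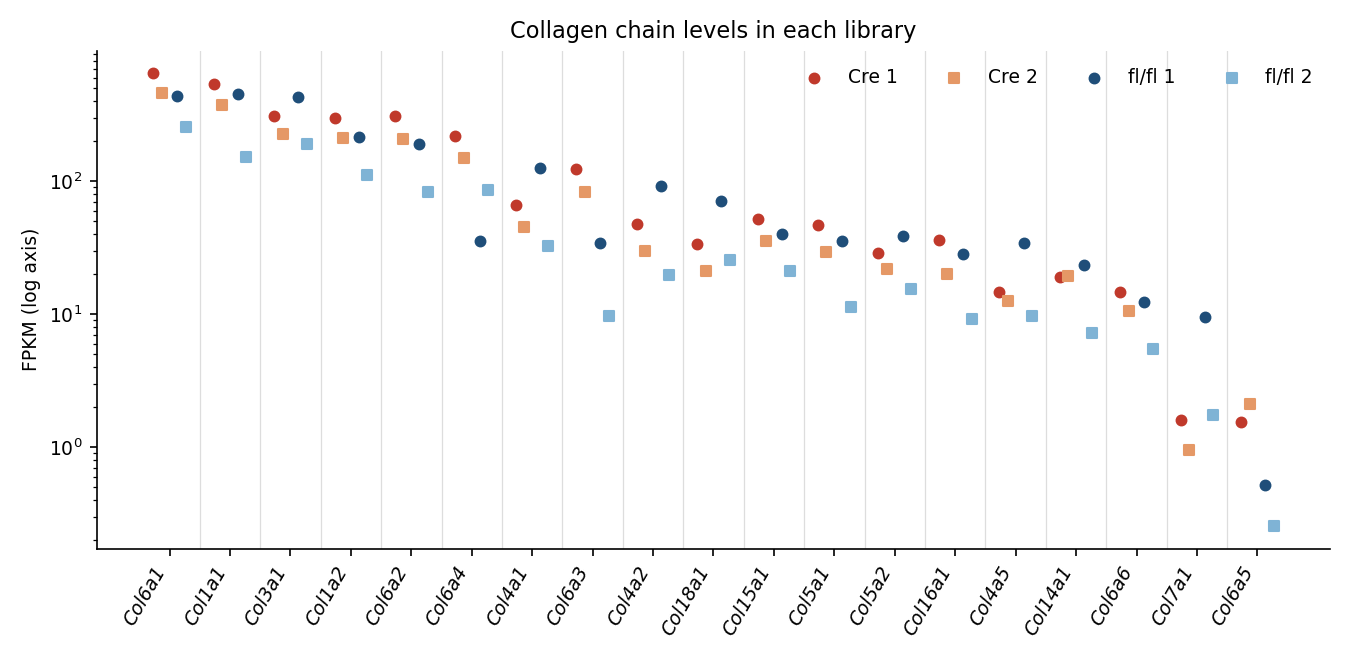
Level in FPKM (log axis) in each of the 4 libraries of the collagen chains with a mean of at least 10 FPKM or an unadjusted p under 0.05; Cre 1 and Cre 2 are red and orange, fl/fl 1 and fl/fl 2 dark and light blue. Each point is 1 library; for Col6a3 the Cre points (123 and 82.8) lie above the fl/fl points (34.4 and 9.72), while for Col4a1 fl/fl 1 (127) is the highest and fl/fl 2 (32.4) the lowest.

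Ratios between chains within a library do not depend on how much collagen RNA the library holds. The ratio of Col6a3 to Col6a2 FPKM was 0.398 and 0.397 in Cre libraries, against 0.181 and 0.116 in fl/fl libraries. The Cre values were nearly equal and both were above the fl/fl values. Col6a1 to Col6a2 was 2.10 and 2.20 in Cre libraries, against 2.29 and 3.05 in fl/fl libraries, so this ratio was lower in Cre libraries. Col6a4 to Col6a2 was 0.713 and 0.719 in Cre libraries, against 0.189 and 1.03 in fl/fl libraries, which enclosed the Cre values. With 2 libraries against 2, an exact permutation test cannot give a two-sided p below 0.33, so no ratio was tested.

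Type VI chains are made by both fibroblasts and smooth muscle. Smooth muscle markers, given above, were higher in Cre libraries, and so were most markers of mesothelium, the outer covering of the uterus. Of the 6 mesothelial markers 5 were higher without overlap (24.7% of all genes were), Wt1 being the exception. Bnc1 is among the 5, although it was tested only through its Cre values and so adds no support. The 6 summed to 64.6 and 47.4 FPKM in Cre libraries, against 39.4 and 23.0 FPKM in fl/fl libraries. Within the fl/fl pair the smooth muscle and mesothelial sums were higher in fl/fl 1, as were the type VI chains except Col6a4, which was higher in fl/fl 2. The 8 markers of endometrial stroma summed to 773 and 793 FPKM in Cre libraries, against 527 and 792 FPKM in fl/fl libraries, and the groups overlapped. Dcn was the largest part of this sum, at 513 and 541 FPKM in Cre libraries, against 216 and 590 FPKM in fl/fl libraries. Of the 8, Hand2, Hoxa10, Hoxa11 and Pdgfra were lower without overlap (23.6% of all genes were). Hoxa11 shares 34.98% of its exon bases with Hoxa11os, Hand2 19.61% with Hand2os1 and Pdgfra 6.5% with other genes, so part of their reads could be shared. Pgr and Esr1 were higher without overlap (24.7% of all genes were). Markers of oviduct and ovary, tissues next to the uterus, were also higher in sum, mostly through Ovgp1: the 6 came to 71.7 and 254 FPKM in Cre libraries, against 5.71 and 26.9 FPKM in fl/fl libraries, where Hsd3b1 was listed at 0. Of the 5 cartilage markers Acan and Matn3 were near or at 0 in all 4 libraries. Their sum of 11.1 and 15.1 FPKM in Cre libraries, against 2.61 and 6.33 FPKM in fl/fl libraries, was mostly Sox9, at 8.07 and 11.2 FPKM in Cre libraries, against 2.27 and 5.50 FPKM in fl/fl libraries. The 4 Schwann cell and nerve markers summed to 3.43 and 6.90 FPKM in Cre libraries, against 0.983 and 1.31 FPKM in fl/fl libraries. The 7 endothelial markers were mixed: their sum was 100.3 and 109 FPKM in Cre libraries, against 140 and 126 FPKM in fl/fl libraries, with 3 of the 7 lower without overlap (23.6% of all genes were). Vwf lay the other way, at 7.999 and 8.60 FPKM in Cre libraries, against 4.62 and 2.62 FPKM in fl/fl libraries. Summed markers of epithelium, pericytes, adipocytes and dividing cells overlapped, and those of dividing cells stood out in fl/fl 1, with 17.1 and 23.95 FPKM in Cre libraries, against 83.8 and 15.1 FPKM in fl/fl libraries. The part of these cell types in the collagen values was not tested. In RNA from whole tissue, more cells of a type cannot be told apart from more RNA per cell.

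The regions before the start of Col6a3 and Col6a5, the chains with the largest fold changes, are shown because type VI differed most. RefSeq promoter entries on GRCm38.p6 matched 35 of the 44 genes, in 38 windows. Col1a1, Col2a1, Col4a3, Col5a2, Col9a3, Col12a1, Col14a1, Col22a1 and Col26a1 had no entry. The 250 bases before the start of Col6a3 and of Col6a5 follow, on the minus strand, with capitals marking GTCTG in Col6a3 (the short SMAD-binding element, read as CAGAC on the opposite strand) and GGGCGG (the GC box) in Col6a5.
Col6a3, chr1:90843972-90844221: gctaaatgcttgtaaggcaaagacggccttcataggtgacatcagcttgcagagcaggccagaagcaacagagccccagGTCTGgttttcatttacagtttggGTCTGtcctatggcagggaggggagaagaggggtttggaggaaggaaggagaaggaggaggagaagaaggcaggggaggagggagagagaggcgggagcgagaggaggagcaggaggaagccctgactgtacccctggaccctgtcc
Col6a5, chr9:105960644-105960893: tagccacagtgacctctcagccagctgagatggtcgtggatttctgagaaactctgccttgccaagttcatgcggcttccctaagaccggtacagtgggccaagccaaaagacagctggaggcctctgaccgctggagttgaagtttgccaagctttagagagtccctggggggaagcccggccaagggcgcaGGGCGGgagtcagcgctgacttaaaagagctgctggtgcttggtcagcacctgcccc

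Short motifs were counted on both strands of the 250 bases upstream. CAGAC was in 17 of the 38 collagen windows (44.7%), beside 42.2% of all 32851 promoters. GGGCGG was in 22 (57.9%), beside 32.7% of all promoters. CCAAT was in 13 (34.2%), beside 33.8%, and TATAAA in 5 (13.2%), beside 12.4%. TGANTCA, the AP-1 element, was in 1 (2.6%), beside 6.7%. A match describes the letters and is not evidence of binding.

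Fibrillar chains form the strong cables of connective tissue. None of the 7 tested fibrillar chains reached an unadjusted p of 0.05, and 4 had positive and 3 negative fold changes. Fold changes were positive for both type I chains, negative for type III and of both signs for type V. The positive ones were small without fl/fl 2, at 0.07 for Col1a1, 0.29 for Col1a2 and 0.14 for Col5a1, and large without fl/fl 1, at 1.55, 1.14 and 1.71.

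Col1a1, the main chain of type I, was listed at 543 and 378 FPKM in Cre libraries, against 451 and 152 FPKM in fl/fl libraries. The fl/fl values enclosed the lower Cre value, and the log2 fold change was 0.64 ± 0.59 (SE; edgeR adjusted p = 0.66). Col1a2, its partner in the same molecule, was listed at 298 and 213 FPKM in Cre libraries, against 214 and 112 FPKM in fl/fl libraries. In scaled CPM the groups did not overlap, while in FPKM Cre 2 and fl/fl 1 were level, and the log2 fold change was 0.66 ± 0.47 (SE; edgeR adjusted p = 0.565). The ratio of Col1a1 to Col1a2 was 1.82 and 1.78 in Cre libraries, against 2.11 and 1.36 in fl/fl libraries, and overlapped.

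Col3a1, the chain of type III, which shares fibrils with type I, was listed at 312 and 226 FPKM in Cre libraries, against 431 and 191 FPKM in fl/fl libraries. The groups overlapped, with a log2 fold change of -0.19 ± 0.51 (SE; edgeR adjusted p = 0.885). Relative to type I it was lower in Cre libraries: the ratio of Col3a1 to Col1a1 was 0.574 and 0.598, against 0.956 and 1.26 in fl/fl libraries. Without fl/fl 1 the fold change of Col3a1 was 0.45, and without Cre 2 it was 0.02.

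Type V chains lie inside type I fibrils and set their diameter. Col5a1 was listed at 47.1 and 29.5 FPKM in Cre libraries, against 35.7 and 11.3 FPKM in fl/fl libraries, with a log2 fold change of 0.73 ± 0.57 (SE; edgeR adjusted p = 0.599). Col5a2 was listed at 29.0 and 22 FPKM in Cre libraries, against 38.5 and 15.4 FPKM in fl/fl libraries, with a log2 fold change of -0.06 ± 0.45 (SE; edgeR adjusted p = 0.961). Both overlapped between the groups, and Col5a2 was 0.67 without fl/fl 1 and 0.12 without Cre 2, but their ratio did not overlap. Col5a1 to Col5a2 was 1.63 and 1.34 in Cre libraries, against 0.926 and 0.733 in fl/fl libraries. Col5a3, the least abundant type V chain, was listed at 5.46 and 3.35 FPKM in Cre libraries, against 5.54 and 4.51 FPKM in fl/fl libraries, and overlapped. Col27a1, a fibrillar chain known from cartilage, was listed at 2.92 and 1.89 FPKM in Cre libraries, against 1.63 and 0.916 FPKM in fl/fl libraries. It had an unadjusted p of 0.0526 and an edgeR adjusted p of 0.365.

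**Figure D3:**
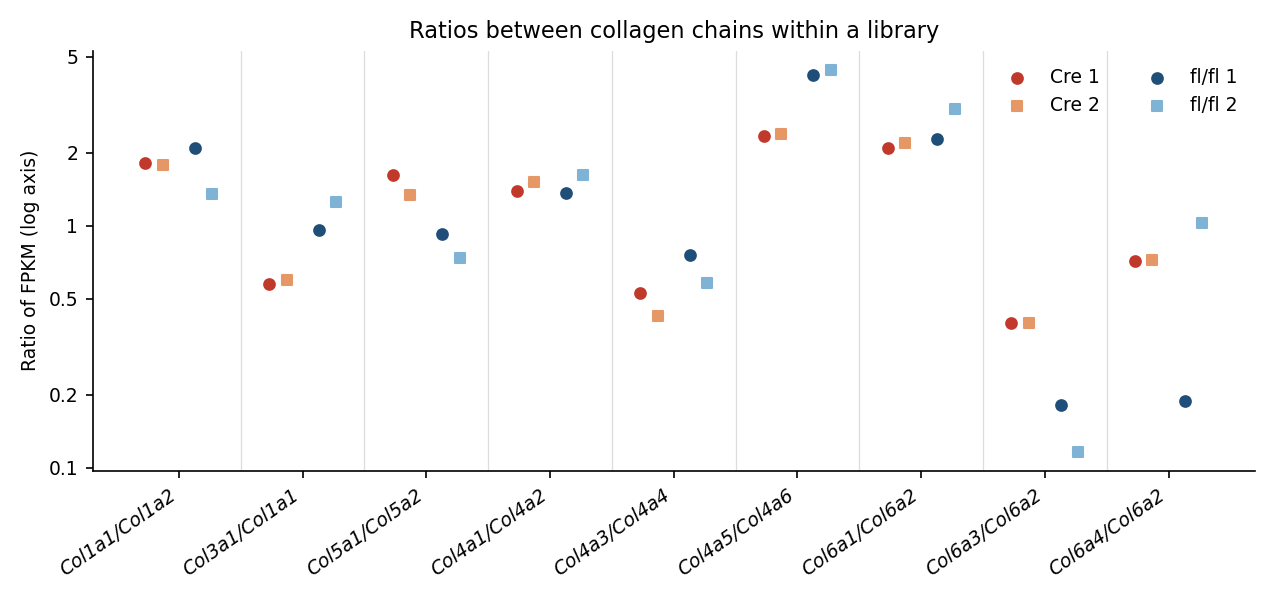
Ratio of FPKM between chains of the same or partner collagens in each of the 4 libraries, on a log axis, with Cre libraries in red and orange and fl/fl libraries in dark and light blue. For Col6a3 to Col6a2 the Cre points sit at 0.398 and 0.397, above the fl/fl points at 0.181 and 0.116; for Col3a1 to Col1a1 the Cre points (0.574 and 0.598) sit below the fl/fl points (0.956 and 1.26).

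Basement membrane collagen leaned lower in Cre libraries, but this rested on fl/fl 1. Of the 6 type IV chains 5 had negative fold changes and 0 reached an unadjusted p of 0.05, and fl/fl 1 held the highest FPKM of all 4 libraries for each of the 6. Without fl/fl 1 the class median was 0.59, against -0.49 with all libraries.

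Col4a1, of the main network of nearly all basement membranes, was listed at 66.6 and 45.6 FPKM in Cre libraries, against 127 and 32.4 FPKM in fl/fl libraries. Its head-to-head neighbour on chromosome 8, Col4a2, was listed at 47.8 and 30.1 FPKM in Cre libraries, against 93.0 and 19.9 FPKM in fl/fl libraries. For both the fl/fl values enclosed the Cre values. The log2 fold changes were -0.48 ± 0.64 and -0.51 ± 0.71 (SE), with edgeR adjusted p of 0.756 and 0.766. Without fl/fl 1 they were 0.74 and 0.92. Their ratio was 1.39 and 1.51 in Cre libraries, against 1.36 and 1.63 in fl/fl libraries, which overlapped.

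Col4a5 and Col4a6, which share molecules in the membranes around smooth muscle, sit head to head on the X chromosome. Col4a5 was listed at 14.7 and 12.6 FPKM in Cre libraries, against 34.5 and 9.70 FPKM in fl/fl libraries, with a log2 fold change of -0.67 ± 0.57 (SE; edgeR adjusted p = 0.624). Col4a6 was listed at 6.22 and 5.27 FPKM in Cre libraries, against 8.24 and 2.20 FPKM in fl/fl libraries, with a log2 fold change of 0.16 ± 0.58 (SE). Each overlapped, and the direction turned for Col4a5 without fl/fl 1 (0.44) and for Col4a6 without fl/fl 2 (-0.48), yet their ratio did not overlap. Col4a5 to Col4a6 was 2.36 and 2.39 in Cre libraries, against 4.19 and 4.41 in fl/fl libraries, with close values within each group.

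Col4a3 and Col4a4, known from the kidney glomerulus, were rare. Col4a3 was listed at 1.11 and 0.656 FPKM in Cre libraries, against 2.15 and 1.11 FPKM in fl/fl libraries, and 5.65% of its exon bases overlap C430014B12Rik. The log2 fold change was -0.87 ± 0.45 (SE; edgeR adjusted p = 0.454), and in scaled CPM the groups did not overlap. Col4a3 was tested only through its fl/fl values, since its mean in Cre libraries was 0.882 FPKM, so this adds no support. Col4a4 was listed at 2.11 and 1.56 FPKM in Cre libraries, against 2.83 and 1.92 FPKM in fl/fl libraries, and overlapped. Their ratio was 0.526 and 0.421 in Cre libraries, against 0.758 and 0.580 in fl/fl libraries.

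Multiplexins are basement membrane collagens whose ends are cut off as free fragments. Col18a1, the parent of endostatin, was listed at 33.9 and 21.4 FPKM in Cre libraries, against 70.6 and 25.7 FPKM in fl/fl libraries, with a log2 fold change of -0.78 ± 0.52 (SE; edgeR adjusted p = 0.546). It was 0.06 without fl/fl 1. Col15a1 was listed at 52.3 and 35.9 FPKM in Cre libraries, against 40.1 and 21.3 FPKM in fl/fl libraries, with a log2 fold change of 0.53 ± 0.38 (SE; edgeR adjusted p = 0.566). Both overlapped.

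Of the 9 FACIT chains 3 were tested and each overlapped. Col16a1 was listed at 35.9 and 20.1 FPKM in Cre libraries, against 28.2 and 9.24 FPKM in fl/fl libraries. Col14a1, which coats type I fibrils, was listed at 19.2 and 19.3 FPKM in Cre libraries, against 23.5 and 7.23 FPKM in fl/fl libraries. Col12a1, its close relative, was listed at 1.77 and 1.91 FPKM in Cre libraries, against 4.87 and 0.643 FPKM in fl/fl libraries, which enclosed them. Log2 fold changes were 0.60 for Col16a1, 0.35 for Col14a1 (-0.25 without fl/fl 2) and -0.55 for Col12a1 (1.47 without fl/fl 1).

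Col7a1, which makes the fibrils that anchor epithelium to the tissue under it, was the only chain lower in Cre libraries at an unadjusted p under 0.05. It was listed at 1.62 and 0.959 FPKM in Cre libraries, against 9.56 and 1.75 FPKM in fl/fl libraries. The groups did not overlap, but fl/fl 2 was close to Cre 1. The fitted log2 fold change came to -2.10 ± 0.79 (SE), with an unadjusted p of 0.0429 and an edgeR adjusted p of 0.338, and without fl/fl 1 it was -0.49. Col26a1 was listed at 0.549 and 0.266 FPKM in Cre libraries, against 2.89 and 0.484 FPKM in fl/fl libraries, and passed the filter through fl/fl 1. Its log2 fold change was -2.02 ± 0.89 (SE; edgeR adjusted p = 0.398), and -0.29 without fl/fl 1. The transmembrane chain Col23a1 and the network chain Col8a2 overlapped, at 1.78 to 2.57 FPKM and at 1.54 to 5.03 FPKM over the 4 libraries.

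The remaining 16 members were not tested: Col9a2, Col17a1, Col8a1, Col11a1, Col20a1, Col13a1, Col24a1, Col28a1, Col9a3, Col25a1, Col11a2, Col22a1, Col10a1, Col9a1, Col19a1 and Col2a1. Their means ran from 0.00608 to 0.702 FPKM, with 1.42 FPKM the highest value in any library, and 4 of them had under 30 counts over all 4 libraries. Most are known from cartilage, nerve, skin or eye. Just inside the filter were Col26a1 at a mean of 1.05 FPKM, Col6a5 at 1.11 FPKM and Col4a3 at 1.26 FPKM, and just outside was Col9a2 at 0.702 FPKM.

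By class, the make-up of the collagen transcripts differed more within the fl/fl pair than within the Cre pair. Type VI made up 46.2% and 45.8% of summed collagen FPKM in Cre libraries, against 30.2% and 41.2% in fl/fl libraries. Type IV made up 4.85% and 4.81% in Cre libraries, against 11.4% and 6.31% in fl/fl libraries. Neither class overlapped between the groups, with type VI above and type IV below the fl/fl values in Cre libraries. Fibrillar chains made up 43.5% and 43.9% in Cre libraries, against 50.3% and 45.7% in fl/fl libraries, and multiplexins 3.03% and 2.88% in Cre libraries, against 4.72% and 4.4% in fl/fl libraries. Both of these lay below the fl/fl values in Cre libraries. FACIT chains made up 2.05% and 2.14% in Cre libraries, against 2.52% and 1.73% in fl/fl libraries, and overlapped. As group means the type VI share was 46.0 ± 0.255% in Cre libraries and 35.7 ± 7.78% in fl/fl libraries (SD, n = 2 each), and the type IV share was 4.83 ± 0.0304% in Cre libraries and 8.86 ± 3.61% in fl/fl libraries.

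**Figure D4:**
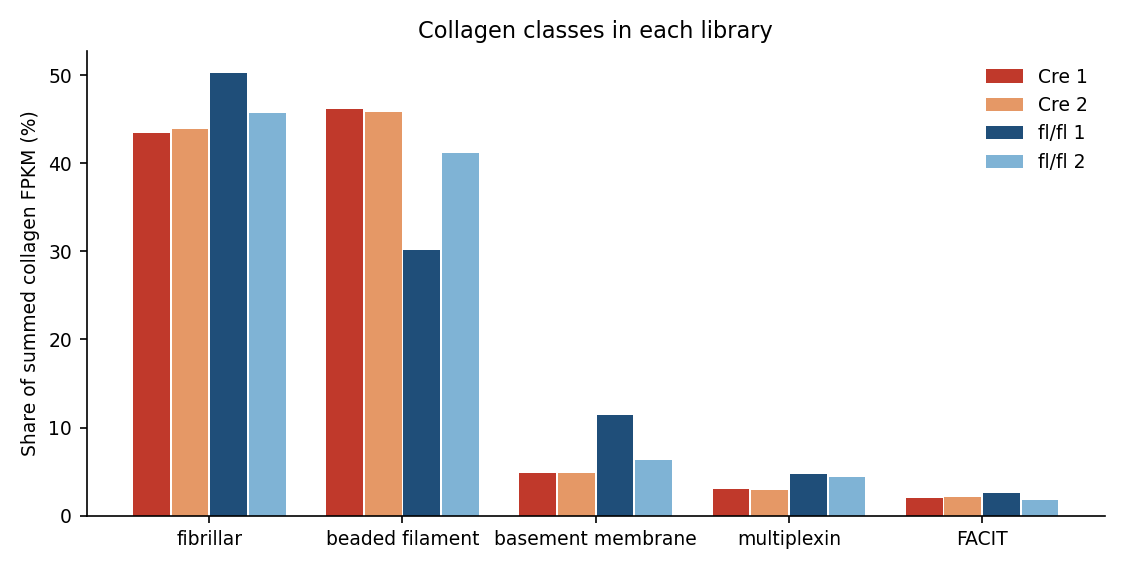
Share of summed collagen FPKM (percent, axis from 0) held by the 5 largest classes in each of the 4 libraries, Cre libraries in red and orange and fl/fl libraries in blue. Type VI (beaded filament) bars reach 46.2 and 45.8 in Cre libraries, against 30.2 and 41.2 in fl/fl libraries.

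The total of collagen RNA did not separate the groups. The 44 chains summed to 2851 and 1992 FPKM in Cre libraries, against 2345 and 1066 FPKM in fl/fl libraries. As a share of all counts this was 2.21% and 1.54% in Cre libraries, against 1.82% and 0.824% in fl/fl libraries. Between libraries of 1 group the chains shifted together: fl/fl 1 was above fl/fl 2 in scaled CPM for 26 of the 28 tested chains, with a median ratio of 2.35, where over all genes it was 1.02. Cre 1 was above Cre 2 for 24 of 28, with a median ratio of 1.47, where over all genes it was 1.00. The lowest of the 4 libraries was fl/fl 2 for 20 of the 28 chains (71.4%), where it was for 33.6% of all genes.

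**Figure D5:**
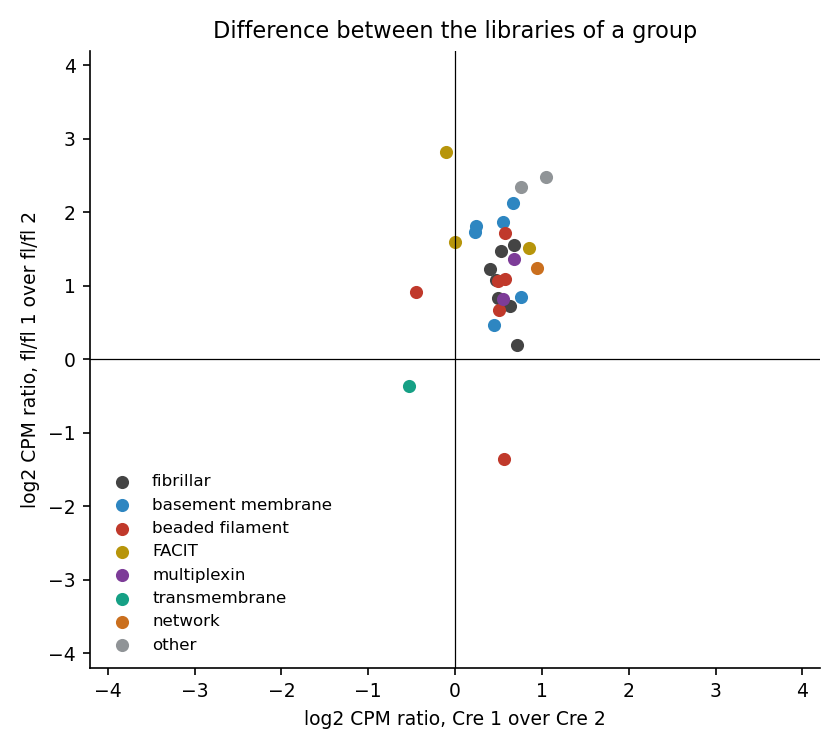
Log2 ratio of CPM between the libraries of a group for each of the 28 tested collagen chains (points, coloured by class), Cre 1 over Cre 2 on the horizontal axis and fl/fl 1 over fl/fl 2 on the vertical axis. Points right of 0 (24 chains) were higher in Cre 1 and points above 0 (26 chains) were higher in fl/fl 1.

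Genes that build, hold and break down collagen were read from the same fit. In none of these lists did a gene pass the adjusted threshold. Counts at an unadjusted p below 0.05 stand beside 7.3% of all genes higher and 6.58% lower. Of 23 tested genes for assembly and secretion, 4 reached an unadjusted p of 0.05 and all were higher in Cre libraries (7.3% of all genes were), although P4ha3 was tested only through its Cre values. The list had a median log2 fold change of 0.17 (0.53 without fl/fl 1). P4ha3, a prolyl hydroxylase subunit, was listed at 3.64 and 2.14 FPKM in Cre libraries, against 0.222 and 0.246 FPKM in fl/fl libraries. Its log2 fold change was 3.62 ± 0.50 (SE; edgeR adjusted p = 0.103). Plod2, the lysyl hydroxylase for cross-links of fibrillar collagen, was listed at 29.9 and 29.4 FPKM in Cre libraries, against 13.3 and 8.02 FPKM in fl/fl libraries (log2 fold change 1.49 ± 0.28; edgeR adjusted p = 0.15). Plod2 shares 6.42% of its exon bases with Gm38391. P4ha1, another prolyl hydroxylase subunit, was listed at 20.6 and 20.9 FPKM in Cre libraries, against 13.1 and 8.14 FPKM in fl/fl libraries. Hspa5, a general chaperone of the endoplasmic reticulum, was listed at 238 and 261 FPKM in Cre libraries, against 140 and 86.1 FPKM in fl/fl libraries.

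Outside the cell, the processing and cross-linking list had 12 tested genes with a median of 0.16 (0.59 without fl/fl 1), and at unadjusted p below 0.05 it held 0 higher and 1 lower (7.3% and 6.58% of all genes). The lower gene was Lox, which starts cross-links by oxidising lysine, at 19.6 and 20.8 FPKM in Cre libraries, against 33.0 and 39.1 FPKM in fl/fl libraries (log2 fold change -0.84 ± 0.23; edgeR adjusted p = 0.237). Adamts3, a procollagen protease, was listed at 2.60 and 2.58 FPKM in Cre libraries, against 1.95 and 0.587 FPKM in fl/fl libraries. Loxl1 and Loxl2, relatives of Lox, overlapped, with fl/fl 1 the highest and fl/fl 2 the lowest library for both.

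Among the collagen receptors, 9 were tested, with 1 higher and 1 lower, near the 7.3% and 6.58% of all genes, and a median of 0.10 (-0.19 without fl/fl 2). Adgrg1, an adhesion receptor that binds type III collagen, was listed at 20.5 and 22.4 FPKM in Cre libraries, against 10.3 and 12.5 FPKM in fl/fl libraries. Lair1, the lower gene and an inhibitory receptor of leukocytes, was listed at 0.992 and 0.974 FPKM in Cre libraries, against 3.94 and 1.35 FPKM in fl/fl libraries. Lair1 was tested only through its fl/fl values, since its mean in Cre libraries was 0.983 FPKM, so its p adds no support. Leukocyte markers were also lower in sum: the 7 markers came to 53.9 and 57.5 FPKM in Cre libraries, against 143 and 159 FPKM in fl/fl libraries. In fl/fl 2 the sum was mostly S100a8 and S100a9, at 35.5 and 60.1 FPKM, which were at 0.879 FPKM or less in Cre libraries. Of 6 tested markers 5 were lower without overlap (23.6% of all genes were), and Csf1r overlapped. S100a8 and S100a9 are among the 5, although they were tested only through their fl/fl values and so add no support. Within the fl/fl pair the sum was higher in fl/fl 2, as were S100a8, S100a9 and Cd3e. Ptprc, Csf1r, Adgre1 and Cd68 were higher in fl/fl 1, and so was Lair1. The part of leukocytes in the Lair1 values was not tested. Itga11, an integrin chain for fibrillar collagen, was listed at 1.29 and 1.03 FPKM in Cre libraries, against 1.87 and 2.10 FPKM in fl/fl libraries, and Mrc2, which takes up collagen fragments, overlapped.

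Collagen degradation was the list with the lowest median, -0.49 over 14 tested genes (-0.22 without fl/fl 1). At unadjusted p below 0.05, 1 gene was higher and 4 were lower, where 7.3% and 6.58% of all genes were. In CPM 9 genes lay below both fl/fl values in Cre libraries and 3 lay above, namely Fap, Timp2 and Timp3, where 23.6% of all genes lay below and 24.7% above. The list and its median also hold protease inhibitors, namely Timp1, Timp2 and Timp3, and Timp1 is among the 9. Mmp9, a gelatinase, was listed at 5.16 and 4.44 FPKM in Cre libraries, against 22.4 and 8.54 FPKM in fl/fl libraries (log2 fold change -1.67 ± 0.46; edgeR adjusted p = 0.237). Mmp2, the other gelatinase, was listed at 84.7 and 70.9 FPKM in Cre libraries, against 360 and 108 FPKM in fl/fl libraries (log2 fold change -1.56 ± 0.58; edgeR adjusted p = 0.3325). Ctsk, a lysosomal collagenase, was listed at 39.1 and 28 FPKM in Cre libraries, against 69.3 and 53.8 FPKM in fl/fl libraries, and Mmp3, a stromelysin, at 2.69 and 2.61 FPKM in Cre libraries, against 9.61 and 4.06 FPKM in fl/fl libraries. Fap, a protease of activated fibroblasts, was the higher gene, at 3.37 and 3.11 FPKM in Cre libraries, against 1.42 and 1.71 FPKM in fl/fl libraries. Mmp9 is also made by leukocytes, whose summed markers were lower in the Cre libraries, and their part was not tested.

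Proteins that bind fibrils had the highest list median, 0.61 over 17 tested genes, where unadjusted p below 0.05 marked 4 genes higher and 0 lower (7.3% and 6.58% of all genes). Omd is among the 17, although it was tested only through its Cre values. At a mean FPKM of at least 5, which leaves out Omd among others, the median was 0.39. Aspn, a small leucine-rich proteoglycan, was listed at 45.3 and 52.7 FPKM in Cre libraries, against 16.6 and 22.8 FPKM in fl/fl libraries (log2 fold change 1.31 ± 0.27; edgeR adjusted p = 0.166). Ogn, of the same family, was listed at 218 and 289 FPKM in Cre libraries, against 56.9 and 115 FPKM in fl/fl libraries. Podn was listed at 4.67 and 4.59 FPKM in Cre libraries, against 2.04 and 0.862 FPKM in fl/fl libraries. Tnxb, which ties fibrils together, was listed at 38.9 and 27.8 FPKM in Cre libraries, against 17.8 and 7.64 FPKM in fl/fl libraries. The Cre and fl/fl values of these 4 genes did not overlap.

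The non-collagen partners of basement membranes had a positive median where type IV chains had a negative one. Of 14 tested, unadjusted p below 0.05 marked 1 as higher and 0 as lower, near the 7.3% and 6.58% of all genes, and the median was 0.24 (0.66 without fl/fl 1). Lama5, a laminin chain under epithelium, was listed at 36.7 and 29.6 FPKM in Cre libraries, against 19.96 and 15.2 FPKM in fl/fl libraries (log2 fold change 0.92 ± 0.27; edgeR adjusted p = 0.261). Hspg2, the core of perlecan, was listed at 58.5 and 43.9 FPKM in Cre libraries, against 39.1 and 13.7 FPKM in fl/fl libraries. Lamb1 and Lamb2, the other laminin chains named by the rule, were each higher in both Cre libraries, with log2 fold changes of 0.48 ± 0.27 and 0.47 ± 0.24 (SE) and edgeR adjusted p of 0.484 and 0.45.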

How the data were processed

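For each of 4 libraries of polyadenylated RNA the authors deposited 1 table with raw counts and FPKM by gene, per the file headers. Per the submitters' processing notes, HISAT2, HTSeq 0.13.5 and GRCm38 were used; strand use is not given in the sources used here, so overlapping or antisense genes cannot be separated. From the counts, edgeR 4.0.16 quasi-likelihood tests (R 4.3.3, TMM scaling, group as the only term, 2 residual degrees of freedom) were run on the 13513 genes averaging 1 FPKM or more, with two-sided p-values adjusted by Benjamini-Hochberg over all of them. The SE of a fold change was worked out from the test statistic. Groups were called not overlapping from CPM with TMM-scaled library sizes. In CPM, 3 counts (the detection floor, for counting error only) were 0.127 to 0.173. The procedure was tested on simulated data. DESeq2 1.42.0, limma 3.58.1 on log2(FPKM + 1) and log2(FPKM + 0.1), other filters and scalings, the replicate number as a block and each library left out were alternatives.

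The members, classes and lists were chosen with earlier results of these data known. Values are given for members with a mean FPKM of at least 10 or an unadjusted p under 0.05 and for chains of the ratio pairs, and for the 4 genes of each other list with the smallest p. The ratios of Col6a4 to Col6a2 and of Col3a1 to Col1a1, the counts of Col6a5, and the values of Col5a3, Col8a2, Col12a1, Col23a1, Col26a1, Col27a1, Mmp2 and the named marker genes were chosen after values were seen. Ctage5 and Mmp1a of the lists were not matched. Replicates of a group differed beyond counting noise (chi-square per degree of freedom 24.7 for the Cre pair and 185 for the fl/fl pair) and were kept as separate libraries.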

Additional observations from a re-analysis of the deposited data

How the results depend on the processing

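Scaling, whether TMM, median-of-ratios or total counts, moved the all-gene median by under 0.01 and changed no chain's direction. Over 12 alternatives, 16 of 28 chains kept their direction (12 higher, 4 lower) and 12 reversed at least once. With no filter, edgeR called 995 genes higher and 933 lower, with 3 collagen chains each way; at an unadjusted p under 0.05 it gave 9 and 8 chains. DESeq2 called 438 genes higher and 405 lower, with 3 chains higher, and gave 5 chains higher and 2 lower unadjusted. With a mean FPKM of at least 5, 1 gene was called higher and 0 chains were lower unadjusted; limma with either pseudocount also gave 0 lower. Leaving out a library gave 0 to 2364 genes higher and 0 to 1885 lower, 0 to 19 chains higher and 0 to 9 lower, and unadjusted 1 to 21 and 0 to 12. The 19 came without fl/fl 1 and the 9 without fl/fl 2, when the lone fl/fl library was assumed to vary like the Cre pair.

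Medians on leaving out a library ran from 0.07 to 1.14 for fibrillar, 0.94 to 1.52 for type VI, -1.18 to 0.59 for type IV, -0.25 to 1.47 for FACIT, -0.57 to 0.53 for multiplexin, -0.0267 to 0.533 for assembly, -0.20 to 0.59 for extracellular processing, -0.19 to 0.33 for receptors, -0.65 to -0.22 for degradation, 0.42 to 0.55 for fibril partners and -0.12 to 0.66 for basement membrane partners. With no filter the FACIT median was -0.56, and at a mean FPKM of at least 5 that of fibril partners was 0.39. The multiplexin share differed by -1.97 percentage points without Col6a1, against -1.61 with it. Reversals on leaving out a library had ranges of -1.37 to 1.47 for Col12a1, -0.25 to 1.36 for Col14a1, -1.31 to 0.0583 for Col18a1, -0.33 to 0.19 for Col23a1, -0.64 to 0.45 for Col3a1, -1.14 to 0.74 for Col4a1, -1.22 to 0.92 for Col4a2, -1.30 to 0.44 for Col4a5, -0.48 to 1.34 for Col4a6, -0.56 to 0.67 for Col5a2, -0.59 to 0.12 for Col5a3 and -0.0402 to 1.26 for Col8a2. Under limma Col12a1 was 0.0117 (pseudocount 0.1), and Col5a2 was 0.0435 and 0.05004 (pseudocounts 1 and 0.1). The cause was not tested.

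Over all genes same-numbered libraries did not deviate together (correlation -0.0829), so the numbers were not taken as pairing. Among the 28 chains replicate 1 was above replicate 2 in 24 for Cre and 26 for fl/fl. With the replicate block, the unadjusted p was under 0.05 for 4 higher and 2 lower chains, Col12a1 was 0.0285 and Col5a2 was 0.0482. With 2 libraries a group, a large within-group spread limits what can be called, and low chains are limited by depth as well.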
